A study of Danio rerio with 39 samples.

Results

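Genes that pattern the posterior of the zebrafish gastrula were examined, namely *cdx1a* (ENSDARG00000114554), *cdx4* (ENSDARG00000036292), *eve1* (ENSDARG00000056012), *hoxb1a* (ENSDARG00000008174) and *hoxb1b* (ENSDARG00000054033). They were chosen by symbol, with earlier results of these data known, and are 5 of the 32057 Ensembl genes counted. Poly-adenylated RNA of pools of entire AB strain embryos was sequenced at the shield stage, when gastrulation has begun. Exposed embryos received continuous gamma radiation from a caesium source from the early cleavage stages onwards, and controls of the same irradiation batch received none. The dose rates were 0.005 mGy/h (3 exposed and 4 control libraries), 0.05 mGy/h (4 and 4), 0.5 mGy/h (6 and 6) and 5 mGy/h (6 and 6). Each dose rate was given in a batch of its own, so that dose rate and batch cannot be told apart between dose rates, and every change below is measured against the controls of the same batch.

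Caudal-related factors (*cdx* genes) switch on posterior *hox* genes and, with Wnt, FGF and retinoic acid signals, give posterior tissue its identity. In zebrafish, *cdx1a* and *cdx4* act partly redundantly, and embryos without *cdx4* (the *kugelig* mutant) have a short tail and too few blood cells. *eve1*, a homeobox gene of the even-skipped family, lies next to the *hoxba* cluster and marks the ventral and posterior margin under the control of BMP and Wnt signals. *hoxb1a* and *hoxb1b* are the zebrafish duplicates of one ancestral *Hoxb1* gene. They respond to retinoic acid and pattern the hindbrain.

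The libraries held between 9845688 and 57169053 counts on genes, with a median of 25507778. The controls of the 5 mGy/h batch were the shallowest (9845688 to 25507778) against 20896629 to 45879001 in the embryos exposed beside them. One library, exposed replicate 3 at 0.05 mGy/h, had 35.7% of multimapped reads, while the control groups stayed between 14.9% and 18.1%. After clustering of the same expression values, 8 of the 39 libraries had been left out of the study's own tests. The 31 kept libraries are given here beside all 39 where they matter. They were chosen on the values tested here, so results over them are no independent support. The labelled stage was checked on markers of the gastrula margin. *tbxta* (492.9 to 949 CPM, that is counts scaled by the library's total with TMM factors), *tbx16* (424 to 1229 CPM), *noto* and *chrd* were found in every library. *gsc* was found in 38 of 39 at a low level (median 2.17 CPM, at most 3.57 CPM). Both gene models named *WNT8A* had 0 counts in all 39.

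*cdx1a* was the member that changed most. At 5 mGy/h its level was 29.2 CPM in the lowest of the 6 exposed libraries, 32.5 CPM at the median and 42.3 CPM in the highest. The 6 controls of that batch had 15.6 CPM at the lowest, 16.8 CPM at the median and 24.9 CPM at the highest. All 6 exposed libraries lay above the highest control, a separation seen upwards for 2.29% of the 15015 genes tested. The means were 33.9 ± 4.92 CPM (SD, n = 6) in exposed embryos and 17.8 ± 3.53 CPM (SD, n = 6) in controls. *cdx1a* rose 1.87-fold, a log2 fold change of 0.90 ± 0.12 (SE) with an adjusted p of 0.00176 in the edgeR quasi-likelihood test. It ranked 7 by p among all genes tested. Of these genes 9.1% were called at an adjusted p under 0.05, 4.57% upwards and the rest downwards. The change also met the study's stricter rule for a differentially expressed gene (DEG, at least 1.5-fold and an adjusted p under 0.01), which 0.533% of the genes met.

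The rise of *cdx1a* was called in each of the 12 fits that left out 1 library, with log2 fold changes from 0.82 to 1.01 and an edgeR adjusted p of at most 0.0091. Over the libraries kept by the study, where 25.4% of genes were called, it was 0.96 ± 0.15 (SE, adjusted p = 0.000494 in edgeR). Exposed replicates 2 and 6, left out of the kept set, had the lowest levels of *cdx1a* in their group (29.9 and 29.2 CPM). With counts thinned to the shallowest library the log2 fold change was 0.90. Independently of the scaling, the count of *cdx1a* relative to that of *cdx4* in the same library was 0.147 to 0.233 in the controls and 0.235 to 0.331 in the exposed libraries of this batch. In a whole-embryo library, more cells that express a gene and more RNA per cell cannot be told apart.

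**Figure D1:**
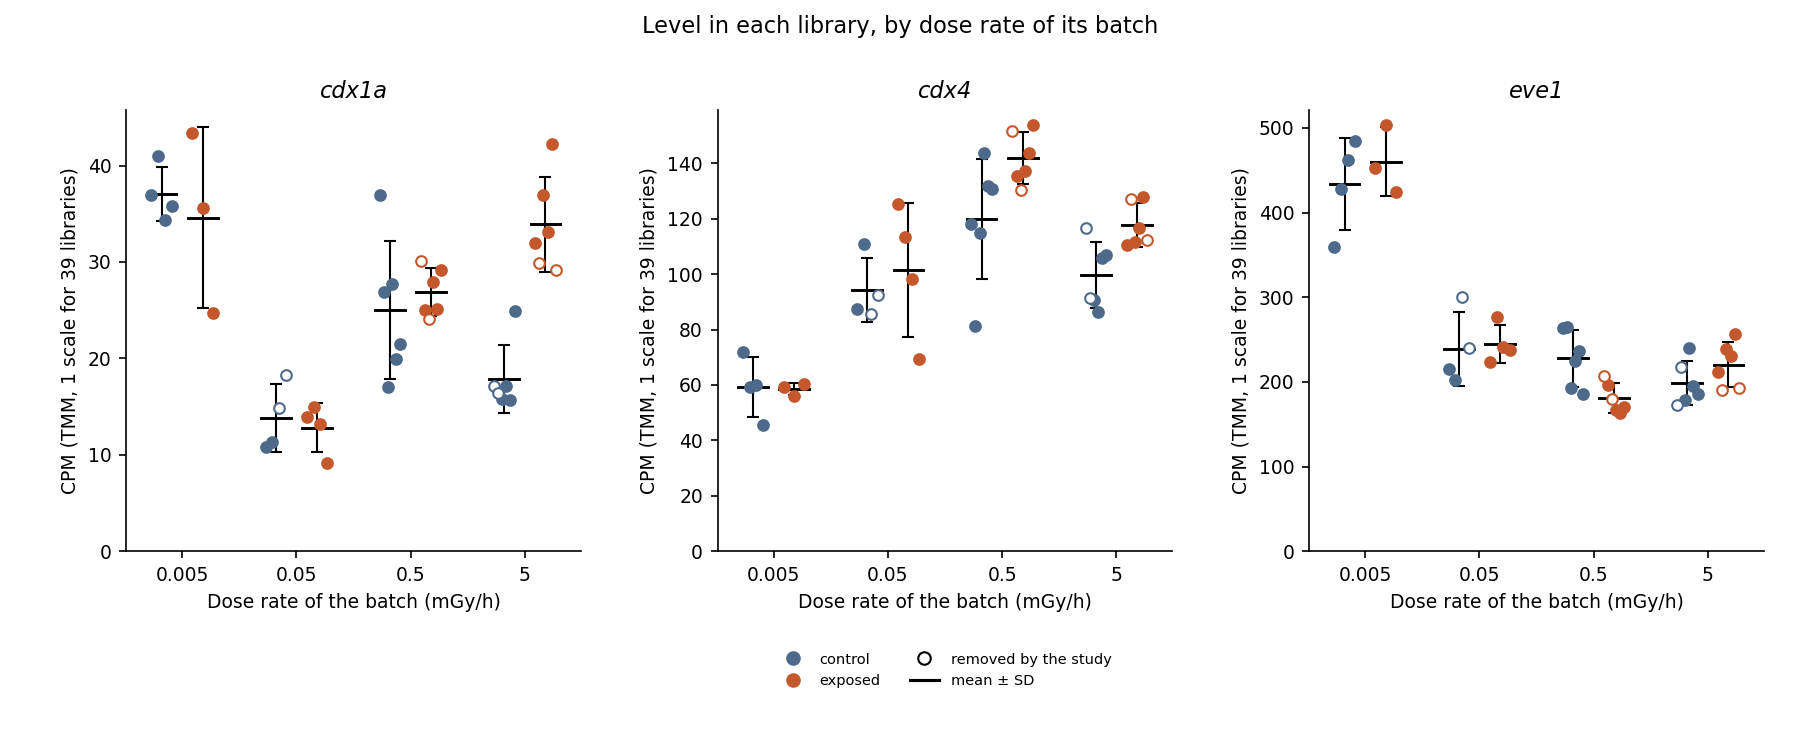
Level of *cdx1a*, *cdx4* and *eve1* in CPM (vertical axis) in each of the 39 libraries, grouped by the dose rate of the batch (horizontal axis), with controls in blue and exposed embryos in orange. Open points are libraries removed by the study, and lines give the mean ± SD. The 6 libraries exposed at 5 mGy/h had 29.2 to 42.3 CPM of *cdx1a*, all above their controls, and the batch of 0.005 mGy/h lay apart from the others in *eve1*, whether exposed or not, but overlapped them in *cdx1a* and *cdx4*.

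At the 3 lower dose rates *cdx1a* was not called. Of all genes tested in edgeR there, 7.51% were called in the batch of 0.5 mGy/h, 0.00632% in that of 0.05 mGy/h and 0.0% in that of 0.005 mGy/h. At 0.5 mGy/h the exposed libraries had 24.0 CPM at the lowest, 26.5 CPM at the median and 30.1 CPM at the highest. The controls had 17.04, 24.2 and 37.0 CPM, so that the exposed libraries lay inside the range of the controls. The log2 fold change was 0.10 ± 0.15 (SE, adjusted p = 0.721 in edgeR). At 0.05 mGy/h the 4 exposed libraries had 13.96, 15.003, 13.2 and 9.12 CPM, and the 4 controls had 10.8, 11.3, 14.8 and 18.3 CPM. The log2 fold change of -0.11 ± 0.20 over all libraries became 0.20 ± 0.20 over the kept libraries, in which only the 2 lower controls remained, and neither was called. At 0.005 mGy/h the 3 exposed libraries had 43.4, 35.6 and 24.7 CPM, which spanned the 4 controls (36.9, 40.9, 34.4 and 35.9 CPM). The log2 fold change was -0.12 ± 0.17 (SE, adjusted p = 0.858 in edgeR).

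*cdx4* passed the test at no dose rate. At 5 mGy/h it had 111 CPM in the lowest exposed library, 114 CPM at the median and 128 CPM in the highest, against 86.3, 98.7 and 117 CPM in the controls. At 0.5 mGy/h the exposed libraries had 130.4, 140.4 and 154 CPM, against 81.2, 124 and 144 CPM. At both dose rates 2 of the 6 exposed libraries lay above the highest control, and the groups overlapped. The log2 fold changes were 0.21 ± 0.09 (SE, adjusted p = 0.154) at 5 mGy/h and 0.24 ± 0.11 (SE, adjusted p = 0.153) at 0.5 mGy/h in edgeR, with unadjusted p of 0.0381 and 0.0321, which 27.8% and 25.4% of the genes tested reached (p under 0.05). At 0.05 mGy/h the 4 exposed libraries had 125, 113, 98.2 and 69.3 CPM and spanned the controls (87.4, 111, 85.8 and 92.6 CPM). At 0.005 mGy/h the 3 exposed libraries had 59.3, 56.1 and 60.2 CPM, within the range of the controls (72.0, 59.3, 60.1 and 45.5 CPM). The log2 fold changes there were 0.11 ± 0.17 and -0.03 ± 0.15 (SE).

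*eve1* fell at 0.5 mGy/h, with an adjusted p just under the threshold. Exposed libraries of that batch had 163 CPM at the lowest, 175 CPM at the median and 207 CPM at the highest, against 186, 230.2 and 264 CPM in the controls. In 4 of the 6 exposed libraries the level lay below the lowest control, and the groups overlapped. The means were 181 ± 17.5 CPM (SD, n = 6) and 228 ± 33.7 CPM (SD, n = 6). *eve1* fell by 0.34 ± 0.10 on the log2 scale (SE, adjusted p = 0.0498 in edgeR). Of the 14906 genes tested there 1.72% were called downwards, and *eve1* did not meet the rule for DEG. The call was lost in 9 of the 12 fits that left out 1 library (exposed replicates 2, 3, 4, 5 or 6, or control replicates 1, 2, 4 or 5), with an edgeR adjusted p up to 0.125. The log2 fold change stayed between -0.39 and -0.29 in those 12 fits. Over the kept libraries, where 11.6% of genes were called, it was -0.39 ± 0.12 (SE, adjusted p = 0.0354 in edgeR). Exposed replicates 1 and 3, left out of the kept set, had 207 and 180 CPM of *eve1*, the first being the highest of their group.

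At the other dose rates *eve1* was not called. In the 5 mGy/h batch the exposed libraries had 190.2, 221 and 257 CPM at the lowest, median and highest, against 173, 190.2 and 240.3 CPM in the controls, and the groups overlapped. The log2 fold change was 0.12 ± 0.09 (SE, adjusted p = 0.411 in edgeR). At 0.05 mGy/h the 4 exposed libraries had 224, 277, 241 and 237 CPM, inside the range of the controls (215, 202, 301 and 239.6 CPM). At 0.005 mGy/h the 3 exposed libraries had 453, 504 and 424 CPM, and 1 of them lay above the highest of the controls (359, 428, 463 and 485 CPM). The log2 fold changes were 0.03 ± 0.14 and 0.06 ± 0.13 (SE).

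**Figure D2:**
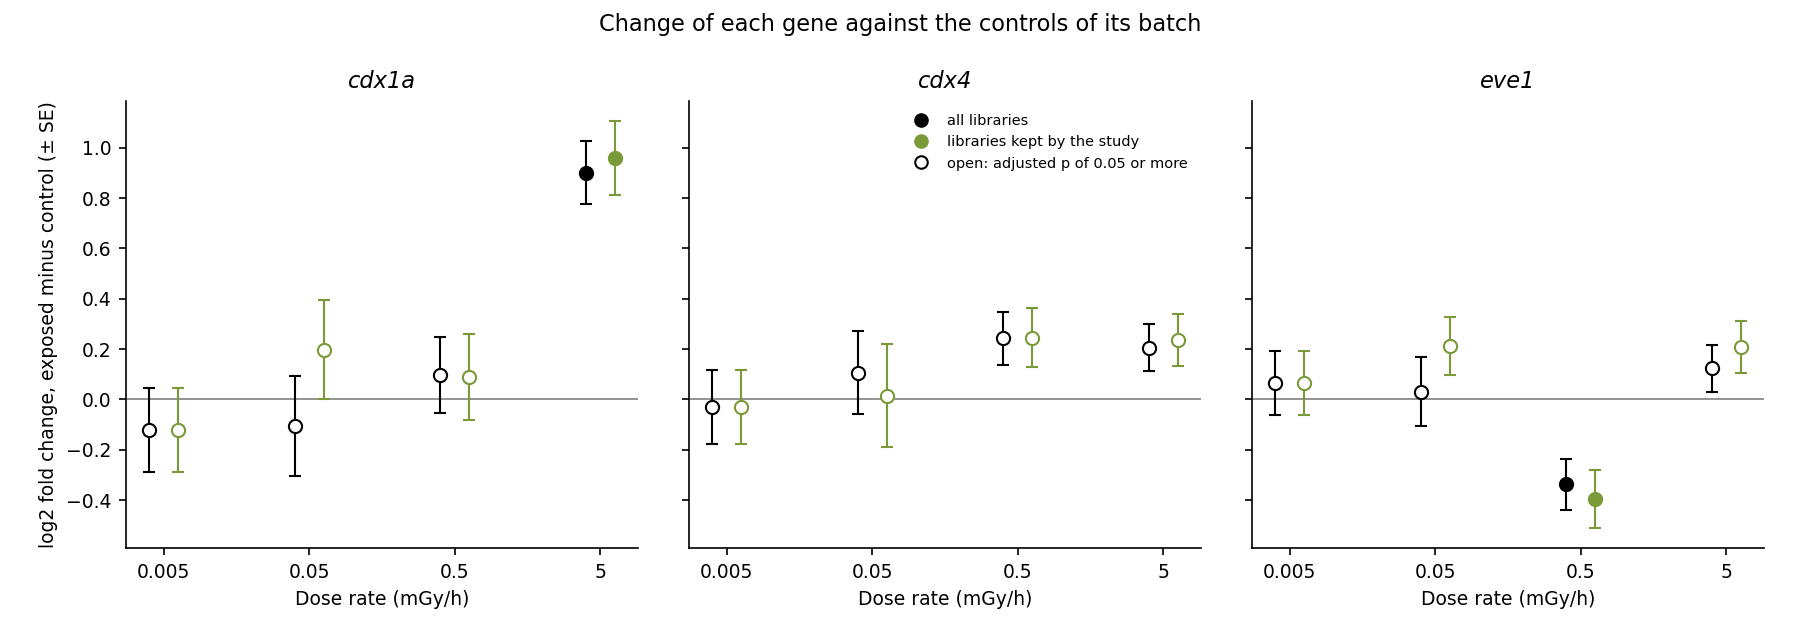
Log2 fold change of *cdx1a*, *cdx4* and *eve1*, exposed minus control (vertical axis, ± SE), at each dose rate (horizontal axis), over all libraries in black and over those kept by the study in green. Filled points have an adjusted p under 0.05. Only *cdx1a* at 5 mGy/h (0.90) and *eve1* at 0.5 mGy/h (-0.34) were called over all libraries, and the same 2 over the kept libraries.

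Whether the change differed between dose rates was tested in 1 model over the 39 libraries. The change of *cdx1a* differed among the 4 batches (adjusted p = 0.0272 in edgeR, where 2.21% of 17255 genes were called). That of *eve1* (adjusted p = 0.115) and of *cdx4* (adjusted p = 0.729) did not pass. Between 5 and 0.5 mGy/h the log2 fold change of *cdx1a* was higher by 0.83 ± 0.22 (SE, adjusted p = 0.0145) and that of *eve1* by 0.49 ± 0.15 (SE, adjusted p = 0.0266), a pair of dose rates for which 13.2% of the genes were called in edgeR. The 2 log2 fold changes of *cdx4* differed by 0.00 ± 0.16 (SE, adjusted p = 0.995). A single common effect of exposure passed for no member. It was 0.28 ± 0.11 (SE, adjusted p = 0.200) for *cdx1a*, 0.17 ± 0.06 (SE, adjusted p = 0.186) for *cdx4* and -0.03 (adjusted p = 0.835) for *eve1* in edgeR, with 0.666% of genes called. Without the batch of 5 mGy/h the common effect of *cdx1a* was -0.01.

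The level in unexposed embryos varied between batches. The highest and the lowest batch mean of the controls differed 2.68-fold for *cdx1a*, 2.03-fold for *cdx4* and 2.19-fold for *eve1*. These folds were larger than those with exposure, but for each gene the 0.005 mGy/h batch gave the highest or the lowest mean. With that batch set aside, the widest difference between controls was 0.84 on the log2 scale for *cdx1a* and 0.32 for *cdx4* (both 0.5 minus 0.05 mGy/h). For *eve1* it was -0.30 (5 minus 0.05 mGy/h). The called changes with exposure were 0.90 for *cdx1a* and -0.34 for *eve1*. *cdx1a* was highest in the controls of 0.005 mGy/h (37.0 ± 2.81 CPM, SD, n = 4), followed by those of 0.5 mGy/h (25.01 ± 7.16 CPM, n = 6), 5 mGy/h (17.8 ± 3.53 CPM, n = 6) and 0.05 mGy/h (13.8 ± 3.49 CPM, n = 4). In edgeR the first neighbours in this order differed (adjusted p = 0.00291), as did the second (adjusted p = 0.0285, and 0.0561 over the controls kept by the study), but not the last (adjusted p = 0.182). The embryos exposed at 5 mGy/h (33.9 CPM) thus had a level between the control means of the 0.5 and 0.005 mGy/h batches.

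*cdx4* had another order. Its control mean was highest at 0.5 mGy/h (120.0 ± 21.7 CPM, SD, n = 6), then 5 mGy/h (99.6 ± 11.9 CPM, n = 6), 0.05 mGy/h (94.2 ± 11.5 CPM, n = 4) and 0.005 mGy/h (59.2 ± 10.8 CPM, n = 4). Only the last 2 neighbours differed (adjusted p = 0.00133 in edgeR, against 0.107 and 0.819 for the others). *eve1* was highest in the controls of 0.005 mGy/h (434 ± 54.8 CPM, SD, n = 4), and the other batches followed at 239 ± 43.9 CPM (0.05 mGy/h, n = 4), 228 ± 33.7 CPM (0.5 mGy/h, n = 6) and 198 ± 25.9 CPM (5 mGy/h, n = 6). Only the first 2 neighbours differed (adjusted p = 1.17e-05 in edgeR, against 0.623 and 0.209). These differences were not particular to the members, since 77.4% of 16249 genes differed between control batches in the same test. For 4 of the pairs of batches above, the share of genes called was 59.6% (0.5 against 0.005 mGy/h), 57.9% (0.05 against 0.005 mGy/h), 31.5% (0.5 against 0.05 mGy/h) and 25.2% (5 against 0.5 mGy/h). Summed levels of tissue and stage markers also differed between control batches. The 23 enveloping layer genes summed to a median of 19581 CPM in the controls of 0.005 mGy/h and of 8037 to 12370 CPM in the other 3 control groups, and the 83 cytosolic ribosomal protein genes to 71919 CPM against 28605 to 47428 CPM. The median sums of yolk syncytial layer and maternal oocyte genes were also highest in the controls of 0.005 mGy/h. Single markers of the yolk syncytial layer were divided. *apoeb* (6882 CPM) and *apoa1b* (117 CPM) had their highest control mean there. *hnf4a* (26.2 CPM) and *apobb.1* (1.24 CPM) had their lowest, as did *mxtx1* by a small margin (68.6 against 68.8 CPM in those of 5 mGy/h). *mxtx2* (0.924 CPM) lay between. The sum of germ plasm genes went the other way, with a median of 498 CPM in the controls of 0.005 mGy/h against 556 to 746 CPM. Its single markers were divided too. *ddx4* (156 CPM), *dazl* (6.45 CPM) and *ca15b* (5.72 CPM) had their lowest control mean there. *dnd1* (27.1 CPM) and *tdrd7a* (63.4 CPM) had their highest, and *nanos3* lay between. *cdx4* was lowest in the same controls. The part of these markers in the levels of the members was not tested.

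*hoxb1a* and *hoxb1b* were hardly counted, and neither passed the filter on low counts in any batch. *hoxb1a* had 156 counts over the 39 libraries and at most 16 in one. The 6 libraries exposed at 5 mGy/h had 3, 4, 2, 6, 7 and 5 counts of *hoxb1a*, and the controls had 13, 1, 10, 1, 3 and 0. At 0.5 mGy/h the exposed had 3, 2, 3, 1, 6 and 1 counts and the controls 1, 7, 3, 0, 3 and 2. At 0.05 mGy/h the exposed had 16, 9, 4 and 2 counts and the controls 5, 10, 3 and 3, and at 0.005 mGy/h the exposed had 0, 3 and 6 and the controls 1, 5, 2 and 0. The groups overlapped at every dose rate. Over all batches *hoxb1a* was at 0.143 CPM of the summed counts in exposed libraries and 0.146 CPM in controls.

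*hoxb1b* had 31 counts in all. Its highest count was 4, in exposed replicate 1 at 0.5 mGy/h, and every other library had at most 3, the limit that a count of 0 allows. Libraries exposed at 5 mGy/h had 2, 0, 2, 0, 3 and 1 counts and each of the 6 controls had 0. The controls together held 92817922 counts, so that their 0 allows up to 0.0323 CPM. The exposed libraries were deeper, with 186897109 counts together, and their 8 counts gave 0.0428 CPM. That value is given without a counting limit of its own, so setting it beside the limit of the controls shows no separation. At 0.5 mGy/h the exposed had 4, 2, 0, 0, 1 and 1 counts and the controls 2, 0, 0, 0, 0 and 0. At 0.05 mGy/h the exposed had 0, 3, 2 and 0 counts and the controls 0, 0, 0 and 1, and at 0.005 mGy/h the exposed had 0, 1 and 2 and the controls 2, 0, 0 and 2. Both genes were too low for the filtered fits. Only the alternative fits without a filter on low counts held them, and no test of a change is reported here for either.

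**Figure D3:**
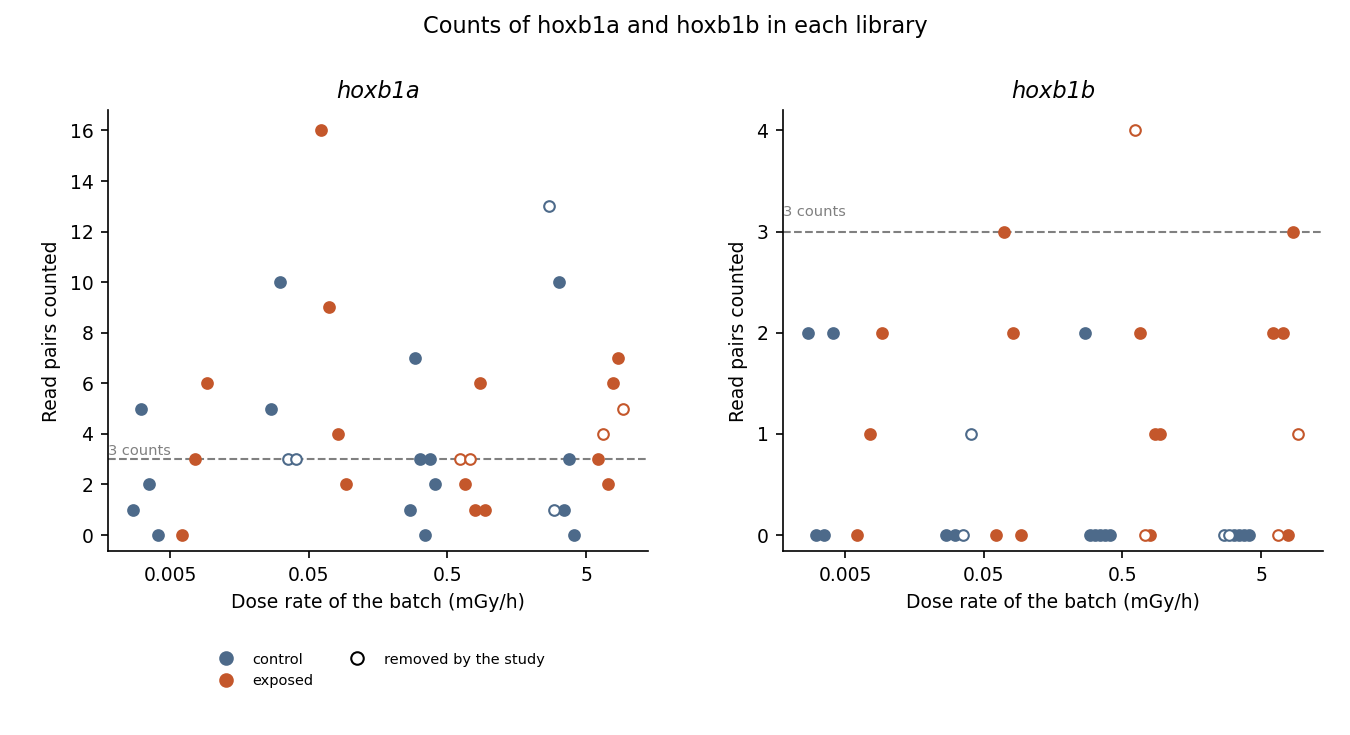
Read pairs counted (vertical axis) for *hoxb1a* and *hoxb1b* in each library, grouped by the dose rate of the batch (horizontal axis), with controls in blue, exposed embryos in orange and open points for libraries removed by the study. The dashed line marks 3 counts. *hoxb1a* reached at most 16 counts, and *hoxb1b* 4 counts.

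The low counts were shared by the rest of the family. None of the 48 *hox* genes of the files passed the filter in any of the 4 fits, and 46 of them never exceeded 0.5 CPM. *hoxb1a* ranked second among them by median level (0.117 CPM) and *hoxb1b* ranked 38. *cdx1b*, the third *cdx* gene, had 16 counts in all, the 2 genes named *evx1* had 11 and 17 and *EVX2* had 18. STAR drops a read pair that overlaps several gene models. In the RefSeq annotation of another assembly (GRCz12tu), sorted by start coordinate, *hoxb1b* is listed between *hoxb8b* and *hoxb6b* and *eve1* beside *hoxb13a*. Where gene models overlap, that listing need not be the order of the genes in the cluster. Whether the rule of STAR accounts for any of the low *hoxb1b* or *WNT8A* counts was not tested.

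The pathways that act with these genes were followed through lists of genes matched by symbol, spelled as the annotation gives them, and genes that share a symbol with another were left out. At 0.005 and 0.05 mGy/h no list gene was called over all libraries, where 0 and 1 of all genes were called in edgeR (1461 and 217 at an unadjusted p under 0.05). The counts at 5 mGy/h that follow stand beside 4.57% of all genes that rose and 9.1% that changed either way, or 25.4% that changed over the kept libraries. Among retinoic acid genes, 2 of 8 rose at 5 mGy/h and none fell. *CYP26A1*, the enzyme that degrades retinoic acid, rose from 64.0 ± 3.21 to 95.5 ± 6.30 CPM (SD, n = 6 and 6; log2 fold change 0.54, edgeR adjusted p = 0.00176) and *rarab*, a retinoic acid receptor, had a log2 fold change of 0.30 (edgeR adjusted p = 0.0251). The list's median was 0.19, beside -0.05 for all genes. Of 20 Wnt genes 4 rose and none fell, with a median of 0.12 (6 rose and 1 fell over the kept libraries). They were the transcription factors of the pathway *TCF7* (0.62), *TCF7L1* (0.49) and *LEF1* (0.29) and the co-receptor *LRP6* (0.38, all log2 fold changes).

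Of 16 FGF genes 1 rose and 3 fell at 5 mGy/h, with a median of 0.10. The ligands *FGF4* (-1.40), *FGF3* (-0.51) and *fgf17* (-0.43) fell on the log2 scale, and *IL17RD*, an inhibitor of FGF signals, rose (0.30). The level of *FGF4* was low, at 1.37 ± 0.271 CPM (SD) in controls and 0.522 ± 0.142 CPM in exposed libraries. Over the kept libraries 4 FGF genes rose and 3 fell, and *fgf17* was not called (adjusted p = 0.0814 in edgeR). Of 19 genes of BMP signals and their ventral targets 4 rose and 1 fell, with a median of 0.17 (7 rose and 2 fell over the kept libraries). *chrd*, the secreted BMP antagonist chordin, rose from 295 ± 29.8 to 442 ± 63.8 CPM (log2 fold change 0.56, edgeR adjusted p = 0.00649), while *vent*, a ventral repressor, fell from 94.0 ± 21.4 to 54.4 ± 17.9 CPM (-0.82, adjusted p = 0.0239). *smad9*, a transducer of BMP signals, and *GATA2*, a factor of ventral ectoderm, rose by 0.40 and 0.36 on the log2 scale.

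Among 10 genes of the posterior mesoderm 2 rose and 1 fell at 5 mGy/h, with a median of 0.04. *tbx6* rose from 3.65 ± 0.518 to 7.27 ± 1.60 CPM (log2 fold change 0.95, edgeR adjusted p = 0.00507) and *tbx16l*, another T-box factor of the paraxial mesoderm, by 0.55 on the log2 scale. *her1*, an oscillating gene of the segmentation clock, fell at 5 mGy/h (-0.37, edgeR adjusted p = 0.0293; 0.0878 over the kept libraries) and at 0.5 mGy/h (-0.48, adjusted p = 0.0113). Of 8 Hox cofactors 2 rose (*MEIS1*, 1.05, and *meis3*, 0.59 on the log2 scale) and 1 fell (*pbx2*, -0.65), with a median of 0.03. The level of *MEIS1* was low, at 0.860 ± 0.309 CPM (SD) in controls and 1.81 ± 0.511 CPM in exposed libraries. Over the kept libraries 1 of 7 cofactors rose and 2 fell, and *meis3* was not called (adjusted p = 0.0743 in edgeR). Among 4 genes of the hindbrain and its border *her5*, which marks the boundary of midbrain and hindbrain, fell by 0.56 on the log2 scale and none rose, while 2 rose and 1 fell over the kept libraries.

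Among 12 anterior neural genes 2 rose and 1 fell at 5 mGy/h, with a median of -0.01 (2 of 11 rose and 2 fell over the kept libraries). *OTX2*, which specifies the forebrain and midbrain, rose from 7.43 ± 0.996 to 15.4 ± 1.98 CPM (log2 fold change 1.01, edgeR adjusted p = 0.000595) and *otx2a* by 0.29 on the log2 scale, while *SOX2*, a factor of the neural plate, fell (-0.60). Of 12 organizer genes 2 rose at 5 mGy/h (*chrd* and *otx2a*) and 1 fell (*lhx1a*, -0.56), with a median of 0.14 (4 rose and 1 fell over the kept libraries). At 0.5 mGy/h, where 7.51% of all genes were called, the calls in these 9 lists were 1 of 8 retinoic acid genes, 2 of 20 Wnt genes, none of 16 FGF genes, 1 of 19 BMP genes, 3 of 9 posterior mesoderm genes, none of 8 Hox cofactors, none of 4 hindbrain genes, 2 of 12 anterior neural genes and 2 of 12 organizer genes.

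**Figure D4:**
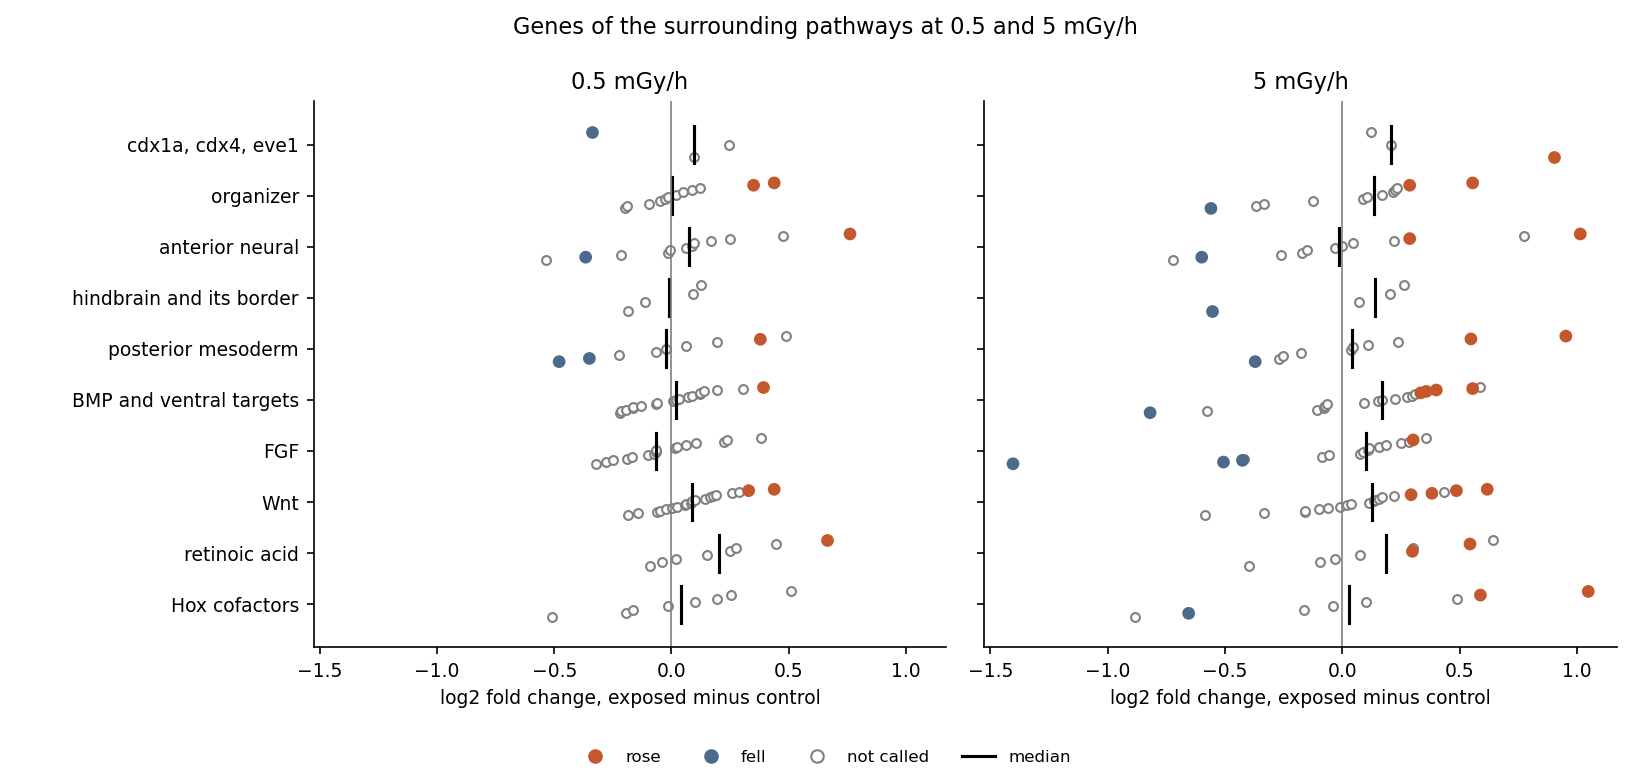
Log2 fold change (horizontal axis, exposed minus control) of each gene of 9 pathway lists and of *cdx1a*, *cdx4* and *eve1* (vertical axis) at 0.5 mGy/h (left) and 5 mGy/h (right). Genes that rose are orange, those that fell blue and those not called open, and vertical bars are list medians. At 5 mGy/h *cdx1a* (0.90) lay near *tbx6* (0.95) and *OTX2* (1.01).

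Lists of ribosomal protein genes and of markers of other tissues were also followed at 5 mGy/h, where 9.1% of all genes were called. The share called was 51.25% of cytosolic ribosomal protein genes, 34.8% of enveloping layer genes and 33.3% of yolk syncytial layer genes. It was 14.3% of germ plasm genes and 4.35% of maternal oocyte genes, the latter below the share of all genes. Of 80 cytosolic ribosomal protein genes 41 rose and none fell, with a median log2 fold change of 0.45 (74 of 80 rose over the kept libraries). Their summed level was 25503 to 39701 CPM in the controls and 33492 to 60007 CPM in the exposed libraries. Of 23 enveloping layer genes 8 rose and none fell (7225 to 9562 CPM summed in controls, 8710 to 12629 CPM in exposed). Of 15 yolk syncytial layer genes 2 rose and 3 fell (9170 to 10960.3 CPM in controls, 10051 to 13045 CPM in exposed), of 14 germ plasm genes 2 fell and none rose (594 to 785 CPM in controls, 552 to 715 CPM in exposed), and of 23 maternal oocyte genes 1 fell and none rose (3038 to 4113 CPM in controls, 3350 to 4353 CPM in exposed). Over the kept libraries, where 25.4% of all genes were called, the counts of these lists were larger. Of the enveloping layer genes 10 of 23 were up (43.5%). Of the germ plasm genes 4 of 14 were down (28.6%), near the share of all genes. More genes rose than fell there among yolk syncytial layer genes (6 of 15 up and 3 down) and maternal oocyte genes (6 of 22 up and 2 down). The balance of called genes over all libraries was the other way in both lists, but it rested on few calls. Over all libraries the median log2 fold change was positive in both, at 0.15 for yolk syncytial layer genes and 0.08 for maternal oocyte genes, beside -0.05 for all genes. No defining marker of these cell layers was at 0. With normalisation factors computed without ribosomal protein and mitochondrial genes, the log2 fold change of *cdx1a* was 0.90. Whether the share of the outer layers bears on *cdx1a* was not tested.

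Genes with a similar pattern were sought over the 39 libraries, with log2 CPM centred on the mean of each batch, among 13389 genes that passed the filter in all 4 batches. The libraries share batch and depth, so the values of r are given as a description. The nearest to *cdx1a* were *tm6sf2a* (r = 0.87), *TECTA* (r = 0.83) and *MDK*, the growth factor midkine (r = 0.83). They rose at 5 mGy/h by 0.99, 0.92 and 1.56 on the log2 scale. The difference between exposed and control was part of the pattern they were matched on, so this shared rise is largely fixed by the choice. The nearest to *cdx4* were *si:dkey-56m19.5* (r = 0.80), *ERGIC3* (r = 0.80) and *cenpt* (r = 0.80). The nearest to *eve1* were *BRD2* (r = 0.92), *COQ10B* (r = 0.91) and *XKRX* (r = 0.90). Among the members, r was 0.37 between *cdx1a* and *cdx4*, 0.35 between *cdx1a* and *eve1* and -0.38 between *cdx4* and *eve1*. With each library centred on its own group, which removes the difference between exposed and control, these values were 0.19, 0.44 and -0.39.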

How the data were processed

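The study made stranded paired-end libraries from total RNA of embryo pools. The deposited values are raw counts of read pairs per Ensembl gene: the authors trimmed adapters, mapped to GRCz11 with STAR (named in the submitters' processing notes) and did not normalise. The column for the strand opposite to the first read was used, and the other strand held at most 2.09% of counts per library. Of 32057 genes 28988 had a symbol.

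Tests were run in R 4.3.3 with edgeR 4.0.16 by two-sided quasi-likelihood tests after TMM scaling, on genes passing its standard low-count filter (at least 10 counts in enough libraries, 15 in total), 1 fit per batch over its libraries, with Benjamini-Hochberg adjustment over all genes tested. A gene changed, rose or fell with an adjusted p under 0.05. CPM were computed with TMM factors over all 39 libraries. DESeq2 1.42.0 and other filters, scalings, strands, depths and library sets were alternatives. The fits were tested on simulated data. Replicates were separate pools of embryos, whose pairs differed beyond counting noise (chi-square per degree of freedom 3.88 to 124 over 81 pairs), and p-values measure the spread between pools. Each dose rate came from 1 irradiation batch, so these p-values hold no spread between repeated irradiations at a dose rate. Intervals and limits from counts of 0 cover counting error only.

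The members and lists were chosen with earlier results of these data known. Named genes were all members, the 3 genes most like each member and, of each list, up to 4 with the largest change at 5 mGy/h among those called.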

Additional observations from a re-analysis of the deposited data

Results flagged for a closer look

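Of the 35 groups of 4 to 6 libraries examined for a sample far from the others, 5 held one. Chance gives about 1 in 20 for continuous values, a rate that does not apply to the *hoxb1* genes, which had a few counts or 0 per library. Control replicate 6 of the 5 mGy/h batch had 24.9 CPM of *cdx1a*, against 15.6 to 17.1 CPM in the other 5 controls, and without it the log2 fold change was 1.01. For *hoxb1a*, exposed replicate 5 at 0.5 mGy/h had 0.254 CPM (6 counts) against at most 0.120 CPM (3 counts). Exposed replicate 4 at 5 mGy/h had 0.266 CPM (6 counts) against at most 0.142 CPM, which was 7 counts in the deeper replicate 5. For *hoxb1b*, control replicate 4 of the 0.05 mGy/h batch (0.0292 CPM, 1 count) and control replicate 1 of the 0.5 mGy/h batch (0.0595 CPM, 2 counts) were the only ones of their groups above 0.

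The change with exposure differed between dose rates for *cdx1a* over the 4 batches (adjusted p = 0.0272 in edgeR, where 2.21% of genes were called). Over the 4 batches *eve1* did not pass (adjusted p = 0.115 in edgeR). Between 5 and 0.5 mGy/h it differed for *cdx1a* (0.83 on the log2 scale) and *eve1* (0.49), as it did for 13.2% of all genes tested. Dose rate and batch cannot be told apart in these differences.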

How the results depend on the processing

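The rise of *cdx1a* at 5 mGy/h kept its call under every alternative run, with log2 fold changes from 0.89 (unstranded counts) to 0.96 (kept libraries), and 0.82 to 1.01 with 1 library left out. The fall of *eve1* at 0.5 mGy/h was lost with thinned counts (-0.33, edgeR adjusted p = 0.0538) and in 1 fit over all libraries (-0.33, adjusted p = 0.0646), and was -0.39 to -0.29 with 1 library left out. The causes were not tested. Signs of changes that were not called turned for *cdx1a* at 0.05 mGy/h over kept libraries (0.20), and for *cdx4* (0.0832) and *eve1* (-0.0143) at 0.005 mGy/h with the replicate block. With 1 library left out, *cdx1a* ranged from -0.31 to 0.0538 at 0.005 mGy/h and from -0.21 to 0.0588 at 0.05 mGy/h, *cdx4* from -0.13 to 0.0765 and from -0.0145 to 0.25, and *eve1* from -0.0153 to 0.13 and from -0.0452 to 0.16. The common effect turned for *cdx1a* without the 5 mGy/h batch (-0.0148) and for *eve1* over kept libraries (0.0145) and without the 0.5 mGy/h batch (0.11). Over kept controls, the difference between batches turned for *cdx4* (5 minus 0.05 mGy/h, -0.0752) and *eve1* (0.5 minus 0.05 mGy/h, 0.11), and that of *cdx1a* (5 minus 0.5 mGy/h, -0.48) was no longer called.

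Counts of genes called depended on the setting. At 0.005 mGy/h edgeR called 0 genes (1461 at an unadjusted p under 0.05), against 153 with DESeq2, 52 without a filter, 459 with the replicate block and 35 in 1 fit over all libraries, and 0 to 155 with 1 library left out (155 without control replicate 1). At 0.05 mGy/h it called 1, against 3 over kept libraries, 2 with DESeq2, 0 by the rule for DEG and 0 to 1 with 1 left out. At 0.5 mGy/h the count was 1120, against 1752 over kept libraries, 1853 with DESeq2, 1995 with the block, 385 in 1 fit and 62 by the rule for DEG, and 225 (without exposed replicate 4) to 1806 (without exposed replicate 3) with 1 left out. At 5 mGy/h it was 1366, against 3690, 2242 and 626 over kept libraries, with DESeq2 and with the block, 80 by the rule for DEG, and 297 (without exposed or control replicate 3) to 2428 (without control replicate 2) with 1 left out. The labels do not say whether the replicate numbers pair the samples. Correlations of same-numbered samples ran from -0.11 to 0.20 over 19 pairs, 7 of which were the best match of their sample. With so few pairs per batch, a pairing was neither shown nor excluded. With the block *cdx1a* at 5 mGy/h was 0.90 (edgeR adjusted p = 0.0129) and *eve1* at 0.5 mGy/h -0.33 (0.0121). An alternative chosen after seeing the data included genes that share a symbol. At 5 mGy/h 9 of 26 Wnt and 4 of 12 retinoic acid genes then rose and none fell. Of 26 BMP genes 5 rose and 1 fell, and of 15 anterior neural genes 3 rose and 1 fell. Of 19 FGF genes 2 rose and 4 fell, and of 7 hindbrain genes 2 rose and 1 fell. Of 17 yolk syncytial layer genes 4 rose and 3 fell. Of 11 posterior mesoderm genes 2 rose and 2 fell (1 of 10 fell without the shared symbols).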

Other observations

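Summed over the 4 batches, *hoxb1b* had counts in 12 of the 19 exposed libraries (24 counts, 0.0413 CPM) and in 4 of the 20 controls (7 counts, 0.014 CPM). *hoxb1a*, in the same libraries, had counts in 18 exposed and 17 control libraries (83 and 73 counts). The exposed libraries were deeper in all, with 580857504 counts on genes against 500000927 in the controls. This sum of *hoxb1b* was formed after the counts were seen, and the difference was not tested. It was not set beside other genes with so few counts.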
